A study of Mus musculus with 11 samples.

Results

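Steroid hormone signaling in OvTrpMyc cell lines was described through 6 genes, Esr1, Esr2, Pgr, Nr3c1, Nr2f2, and Greb1, of the 28284 genes in the count table. Esr1, Esr2, Pgr, Nr3c1, and Nr2f2 encode nuclear receptors, and Greb1 is an estrogen-induced gene whose product acts as a coactivator of the estrogen receptor. The genes were taken as named, and all 6 were found in the table. RNA was sequenced from 11 cell lines of 7 mice, with 1 library per line. All mice were heterozygous for Ovgp1-Trp53-R270H-Myc, in which the Ovgp1 promoter, active in the epithelium of the fallopian tube, drives a dominant-negative p53 and Myc from the endogenous Trp53 locus on a C57BL/6 background. There were 7 lines from an ovary with its fallopian tube (F318 LOV and ROV, F364 LOV and ROV, F319 ROV, F326 ROV, and F339 ROV, where ROV and LOV are the right and left side), 2 from a uterus (F319 and F333), 1 from a splenic tumor (F326), and 1 from a peritoneal tumor (F361). No ages are used here, no wild-type line was compared, and the F361 line had not retained expression of the mutant p53 according to the study's methods. The lines were adherent cultures of minced tissue grown in RPMI 1640 with serum, and the labels give no hormone or other treatment. The mice were female, since the study dissected uterus, ovaries, and fallopian tubes from them. In 4 mice, 2 lines came from the same animal.

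Nuclear receptors are transcription factors that are switched by a ligand. After binding its hormone, a steroid receptor sheds its Hsp90 chaperones, binds DNA as a dimer at an inverted repeat, and recruits coactivators or corepressors. In the female tract, estrogen acting through Esr1 drives growth of the epithelium and induces Pgr and Greb1, progesterone acting through Pgr opposes that growth and prepares the stroma for implantation, and Nr2f2 (COUP-TFII), an orphan receptor of the stroma, is part of the progesterone pathway. Nr3c1, the glucocorticoid receptor, is found in nearly every cell type, and Esr2 is best known from the granulosa cells of the ovary.

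Sequences are shown for the promoters of Esr1, Pgr, and Greb1, the 3 members whose levels were highest in the same line. They are RefSeq promoters on GRCm38.p6, from 250 bases before to 50 bases after the start site, written 5′ to 3′ on the strand of the gene. Capitals mark the 5-base arm of an estrogen response element, GGTCA or its reverse complement TGACC.
Esr1, chr10:4611739-4612038, plus strand: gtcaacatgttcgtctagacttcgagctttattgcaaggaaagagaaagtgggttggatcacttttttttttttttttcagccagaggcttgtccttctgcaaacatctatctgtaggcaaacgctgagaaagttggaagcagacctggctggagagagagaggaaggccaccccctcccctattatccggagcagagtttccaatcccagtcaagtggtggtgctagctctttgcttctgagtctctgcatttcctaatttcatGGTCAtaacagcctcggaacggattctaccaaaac
Pgr, chr9:8899583-8899882, plus strand: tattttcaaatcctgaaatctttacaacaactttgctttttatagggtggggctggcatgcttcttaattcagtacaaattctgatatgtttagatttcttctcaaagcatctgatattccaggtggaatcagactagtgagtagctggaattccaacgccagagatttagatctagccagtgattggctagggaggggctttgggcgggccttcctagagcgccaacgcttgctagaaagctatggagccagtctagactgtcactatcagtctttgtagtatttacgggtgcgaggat
Greb1, chr12:16800837-16801136, minus strand: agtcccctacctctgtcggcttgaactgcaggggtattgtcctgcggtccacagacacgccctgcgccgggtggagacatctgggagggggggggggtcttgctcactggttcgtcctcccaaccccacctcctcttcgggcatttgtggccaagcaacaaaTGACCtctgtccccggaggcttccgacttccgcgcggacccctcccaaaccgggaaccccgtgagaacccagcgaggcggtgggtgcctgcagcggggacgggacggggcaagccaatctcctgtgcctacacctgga
The table held 7 promoters for 5 of the 6 members and none for Nr3c1. Esr1 and Greb1 each had 2, and the one farther upstream is shown. The arm was present in the shown Esr1 promoter 15 bases after the start site and in the shown Greb1 promoter 88 bases before it, and no arm was in the Pgr window. The other Esr1 promoter (chr10:4709908-4710207) held no arm, and the other Greb1 promoter (chr12:16757190-16757489) held 2. Over all 32851 promoters of this length, 40.5% held an arm on either strand, so its presence in 2 of the 3 windows shown is a description only. A complete estrogen response element (GGTCANNNTGACC) was in 0.0700% of all promoters and a complete glucocorticoid response element (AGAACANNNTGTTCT) in 0.00913%, and neither was in any of the 7 promoters of the members. The absence of these letters from a window of 300 bases says nothing about binding of the receptor elsewhere.

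The libraries held 13580525 to 27044598 counts. Levels are given as CPM, the counts of a gene per 1000000 counts of its library. Low counts were mostly even numbers, as when both mates of a read pair are counted, so 95% Wilson intervals were computed on pairs, and 3 pairs (6 counts, 0.222 to 0.442 CPM) were taken as the level that a count of 0 allows. These intervals cover counting error only. The libraries fell into sets that do not follow the tissue labels. Libraries 1 to 7 had 7.91% to 15.3% of their counts on a list of 43 skeletal muscle fiber genes and 128 to 174 CPM on 4 Y-linked genes, whereas libraries 8 to 11 (both uterus lines with F318 LOV and F339 ROV) had 0.191% to 1.34% and 1.75 to 19.2 CPM. Both uterus lines were therefore in libraries 8 to 11 with only 2 of the 7 ovary lines. The mice were female and so carried no Y-linked genes. The source of the Y-linked RNA, and its part in the levels given below, was not tested. The defining epithelial markers Epcam and Cdh1 did not pass 2.12 and 3.68 CPM in any line. Keratins were uneven, with Krt8 at 52.7 CPM in F319 ROV and at or under 0.663 CPM in the 10 other lines, Krt18 at 67.9 CPM in F319 ROV and 39.9 CPM in F364 ROV, Krt19 at 21.7 CPM in F319 ROV and 17.2 CPM in F318 LOV, and Krt7 at 40.5 CPM in F333 uterus and 16.6 CPM in F319 uterus. The 13 stromal markers summed to 2167 to 17511 CPM in the first set and 23243 to 38781 CPM in the second. Of the 13, Dcn and Lum went the other way without overlap. Dcn had 160 to 323 CPM in the first set and 12.1 to 31.8 CPM in the second. Lum had 2.72 to 24.9 CPM and 0.175 to 1.49 CPM. The 7 granulosa and theca cell markers in the table summed to 30.8 to 149 CPM in the ovary lines and 127 to 191 CPM in the uterus lines, largely from Inhba (1.74 to 142 and 125 to 187 CPM) and, in F326 ROV, from Inha (32.1 CPM), while Foxl2 and Amh were at 0 to 7.54 and 0.175 to 3.94 CPM in the ovary lines, and Lhcgr was at or under 0.127 CPM in all lines. In bulk libraries, fewer cells of a type and less RNA per cell cannot be told apart.

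Esr1 (GRCm38 chromosome 10, 4611593 to 5005614, plus strand), the main estrogen receptor, was detected in all 11 lines and was highest by far in the F319 uterus line. There it reached 87.0 CPM (82.1 to 92.1). The next levels were 23.6 CPM in the F361 peritoneal tumor line and 19.96 CPM in F326 ROV. F364 LOV followed with 15.4 CPM, F364 ROV with 10.02 CPM, and F319 ROV with 9.99 CPM. These 5 lines, all in libraries 1 to 7, formed a middle range. Below them were F318 LOV at 7.29 CPM, F318 ROV at 6.05 CPM, and the F326 splenic tumor line at 5.70 CPM. The other uterus line, F333, had only 3.48 CPM (2.53 to 4.79), and F339 ROV was lowest with 3.02 CPM (2.20 to 4.14). The uterus lines thus stood at opposite ends of the order, 24.98-fold apart (95% counting interval 17.9 to 35.0), and the ovary lines lay between or below them. F319 uterus exceeded the next line 3.69-fold (3.13 to 4.38). Of the 10 steps between neighbors in this order, 5 were within counting error, among them F361 to F326 ROV and F333 uterus to F339 ROV.

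Pgr (chromosome 9, 8899833 to 8968611, plus strand), the progesterone receptor, was close to or below detection in most lines. It was at 58.2 CPM (54.3 to 62.4) in F319 uterus, at 12.8 CPM (10.52 to 15.5) in F364 LOV, at 3.67 CPM in F318 LOV, and at 2.15 CPM in the F326 splenic tumor line. The 7 other lines stayed below 1 CPM. The F361 line had 0.736 CPM and F318 ROV 0.571 CPM, on 10 counts each. In the last 5 lines Pgr was at or below the limit of detection, with 5 counts in F339 ROV, 4 in F333 uterus, 2 in F364 ROV, and 0 in F326 ROV and F319 ROV. Pgr RNA was therefore present in lines from both organs, and absent or at the limit of detection in lines from both organs. F319 uterus exceeded F364 LOV 4.56-fold (3.70 to 5.67), and F364 LOV exceeded F318 LOV 3.49-fold (2.41 to 5.12). F318 LOV and the splenic tumor line did not differ beyond counting error (ratio 1.70, interval 0.949 to 3.19).

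Greb1 (chromosome 12, 16670615 to 16800886, minus strand) followed the same top of the order as Pgr. It was at 176 CPM (169 to 183) in F319 uterus, at 36.7 CPM (32.7 to 41.2) in F364 LOV, and at 6.11 CPM (4.84 to 7.72) in F318 LOV. These were also the 3 lines with the most Pgr. Esr1, Pgr, and Greb1 were thus highest in F319 uterus, 3 of the 5 members with a mean count of 10 or more, against 20.5% of all genes with that count. The F361 line had 2.87 CPM, F326 ROV 2.54 CPM, F318 ROV 2.51 CPM, F333 uterus 2.37 CPM, and F364 ROV 2.03 CPM. F339 ROV had 1.37 CPM, F319 ROV 0.896 CPM, and the F326 splenic tumor line 0.380 CPM on 6 counts. From the fourth line downward, all 7 steps between neighbors were within counting error. F319 uterus exceeded F364 LOV 4.79-fold (4.24 to 5.43) and F333 uterus 74.2-fold (49.6 to 112). The splenic tumor line, the fourth for Pgr, was the last for Greb1.

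Esr2 (chromosome 12, 76120419 to 76177259, minus strand), the second estrogen receptor, was not measurable at this depth. It had at most 4 counts in any line (0.295 CPM in F361 and 0.254 CPM in F364 ROV) and 0 counts in 5 lines, including both uterus lines. A pseudogene within its span on the same strand, Gm7862, had 2.85 to 12.7 CPM and was counted apart. The mean of log2(CPM + 1) was 0.13 lower in the 2 uterus than in the 7 ovary lines, with an exact two-sided permutation p of 0.278 over the 36 splits of these lines, where the smallest p is 0.0278. All its values were at or below the level that 0 counts allow, so no order of lines was read from them.

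Nr3c1, the glucocorticoid receptor, was well measured everywhere and varied least. The uterus lines had 223 CPM (F333) and 141 CPM (F319). The ovary lines had 202 CPM in F339 ROV, 122 CPM in F364 ROV, 117 CPM in F364 LOV, 85.2 CPM in F318 ROV, 80.8 CPM in F319 ROV, 73.0 CPM in F326 ROV, and 72.0 CPM in F318 LOV, and the tumor lines had 97.1 CPM (F361) and 65.4 CPM (F326 splenic tumor). The whole range spanned 3.41-fold, and F339 ROV lay among the uterus lines. For comparison, the range of Greb1 spanned 463-fold (95% counting interval 158 to 2246), with only 3 pairs in its lowest line, the level that a count of 0 allows. On the log2(CPM + 1) scale, the SD over 11 lines was 0.60 for Nr3c1, 1.28 for Esr1, 1.40 for Nr2f2, 1.89 for Pgr, and 2.07 for Greb1. Among the 16001 genes with a mean count of 10 or more, the SD of Nr3c1 lay at percentile 41.3, and those of Esr1, Nr2f2, Pgr, and Greb1 at percentiles 84.3, 88.0, 95.8, and 97.1.

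Nr2f2 (chromosome 7, 70351944 to 70366735, minus strand) split by library set and not by tissue. In libraries 8 to 11 it was at 175 CPM in F318 LOV, 152 CPM in F339 ROV, 132 CPM in F333 uterus, and 132 CPM in F319 uterus. In libraries 1 to 7 it was at 69.3 CPM in F318 ROV, 27.5 CPM in the F326 splenic tumor line, 26.5 CPM in F364 LOV, 24.4 CPM in F319 ROV, 19.4 CPM in F326 ROV, 16.9 CPM in F364 ROV, and 13.0 CPM in the F361 line. The sets did not overlap, and the uterus lines differed from each other by a ratio of only 0.995 (0.928 to 1.07). Nr2f2 was the only member of those 5 members whose levels in libraries 8 to 11 did not overlap those in libraries 1 to 7. Over all genes, 42.8% did not overlap, 26.1% being higher in libraries 8 to 11, so 1 of 5 members is no more than the background. The non-overlap was also present in CPM scaled by TMM factors (background 40.5%) and in CPM without the muscle fiber genes (background 40.9%, or 22.1% higher). F318 ROV, which had the least muscle RNA and the highest stromal marker sum of libraries 1 to 7, also had the most Nr2f2 of that set. Its level of the stromal marker Dcn, 160 CPM, was the lowest of that set. The part of the stromal and muscle RNA in the Nr2f2 difference was not tested. An antisense transcript that overlaps Nr2f2, B130024G19Rik, did not pass 2.98 CPM.

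**Figure D1:**
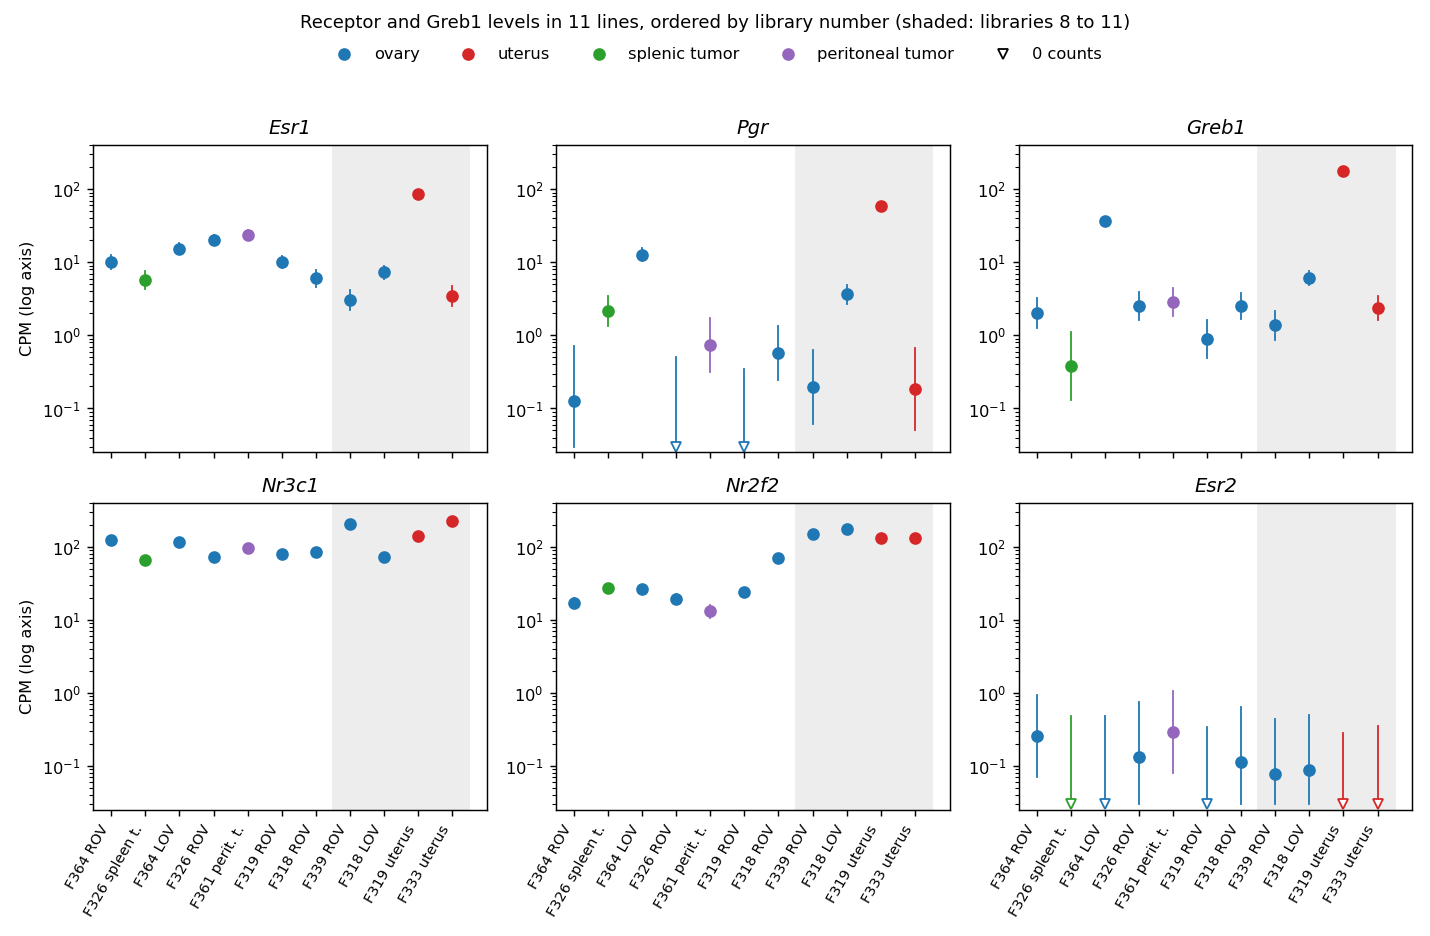
CPM of the 6 genes (log axis) in the 11 lines, ordered by library number, with 95% Wilson intervals on read pairs and libraries 8 to 11 shaded. Colors give the tissue, and open triangles at the foot are lines with 0 counts. Esr1, Pgr, and Greb1 peak in F319 uterus (87.0, 58.2, and 176 CPM), Nr2f2 is higher in all shaded lines, and Nr3c1 spans 3.41-fold.

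Compared per length, as CPM per kilobase of exon, the members differed in abundance. By the median over the lines, Nr3c1 was the most abundant with 12.6 CPM per kilobase, followed by Nr2f2 with 3.18, Esr1 with 0.731, Greb1 with 0.262, Pgr with 0.0668, and Esr2 with 0.0233. Among the 5 members other than Esr2, 6 of the 11 lines had the order of these medians, and F319 uterus, F364 LOV, F318 LOV, and both tumor lines had another. In F319 uterus, Greb1 at 18.3 CPM per kilobase equaled Nr3c1 at 18.3, and Pgr at 6.81 was slightly above Esr1 at 6.37. In F364 LOV, Greb1 at 3.83 was above Nr2f2 at 3.07, and Pgr at 1.496 above Esr1 at 1.13. In F318 LOV, Greb1 at 0.638 was above Esr1 at 0.534, and in the splenic tumor line Pgr at 0.252 was above Greb1 at 0.0396. In the F333 uterus line the corresponding levels were 29.0 for Nr3c1, 0.255 for Esr1, 0.247 for Greb1, and 0.0217 for Pgr.

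The design implies a comparison of uterus with ovary lines, and no member passed the edgeR test between them. The low-count filter kept 5 of the 6 members. With edgeR's quasi-likelihood test on 2 uterus and 7 ovary lines, 0 of 5 members and 0 of 17446 genes (0% called) had a Benjamini-Hochberg adjusted p under 0.05, and 2308 genes had an unadjusted p under that value. Greb1 was 3.16 higher in uterus on the log2 scale (SE 1.43, adjusted p = 0.359), Pgr 3.16 higher (SE 1.98, adjusted p = 0.399), and Esr1 1.78 higher (SE 0.90, adjusted p = 0.359). These differences rest on the F319 uterus line. Without it, the fitted values changed sign, to -1.71 for Esr1, -3.89 for Pgr, and -1.87 for Greb1. Nr3c1 was 0.60 higher in uterus (SE 0.42, adjusted p = 0.431), and 0.13 higher without the F333 line. Nr2f2 was 0.90 higher (SE 0.77, adjusted p = 0.501), but -0.24 once the library set was a term of the fit and -0.29 within libraries 8 to 11. DESeq2 called 1293 of 27829 genes (4.65%), 165 higher (0.593%) and 1128 lower (4.05%) in uterus. Among them was 1 member, Greb1 (log2 fold change 4.40, adjusted p = 0.00764). The 27829 include genes, such as Esr2, to which DESeq2 gave no adjusted p and which it could not call. Among the genes it could call, these shares would be higher, here and for the lists below. For none of the 5 members did both uterus lines lie outside the range of the ovary lines, against 8.04% of the tested genes.

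**Figure D2:**
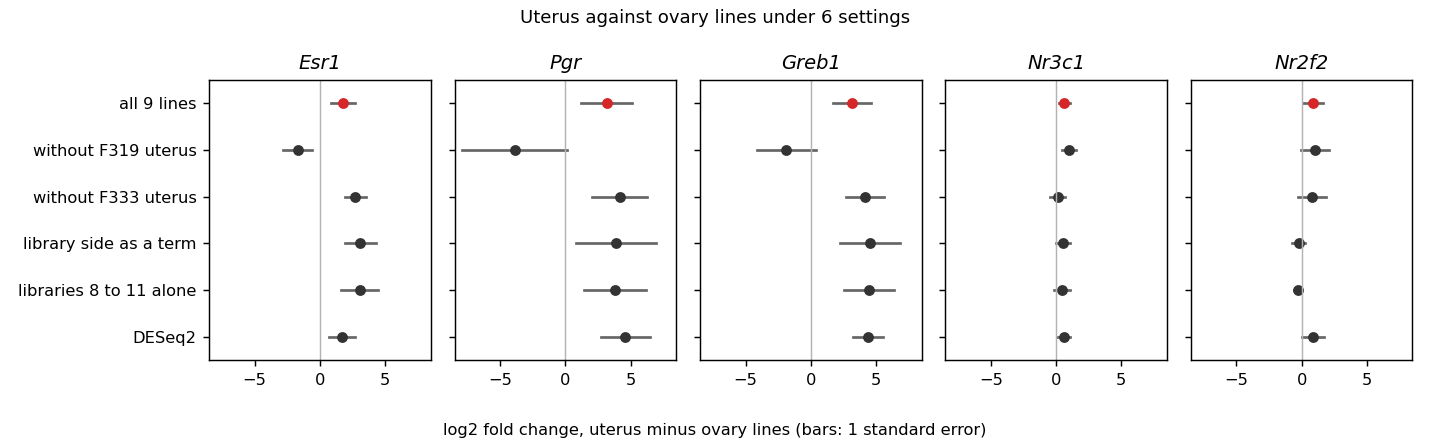
Log2 fold change of uterus minus ovary lines (x axis) with 1 standard error for 5 members, under 6 settings (y axis): all 9 lines in edgeR (red), without either uterus line, with library set as a term, within libraries 8 to 11, and by DESeq2. Esr1, Pgr, and Greb1 cross to -1.71, -3.89, and -1.87 without F319 uterus, and Nr2f2 falls to -0.24 and -0.29 when library sets are taken into account.

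Lines of the same mouse differed widely in Pgr and Greb1. In mouse F319, the uterus line had 8.71 times the Esr1 of the ovary line (7.14 to 10.6) and 196 times the Greb1 (107 to 410). Pgr was at 788 pairs in the uterus line and 0 in F319 ROV, which by the lower bound of the same interval is at least 176-fold higher. Nr3c1 was 1.74-fold (1.61 to 1.89) and Nr2f2 5.40-fold (4.76 to 6.17) higher in the F319 uterus line. These 2 lines of F319 were also in different library sets. In mouse F364, whose ovary lines were libraries 1 and 3, LOV had 18.1 times the Greb1 of ROV (10.9 to 32.1) and 101 times the Pgr on only 2 counts in ROV (interval 17.7 to 4020). Esr1 was only 1.54-fold higher in F364 LOV (1.15 to 2.07), and Nr3c1 did not differ beyond counting error (0.958, interval 0.873 to 1.05). The muscle shares of the F364 lines were 13.9% in LOV and 14.3% in ROV. In mouse F318, LOV had 6.42 times the Pgr (2.54 to 20.8), 2.43 times the Greb1 (1.49 to 4.13), and 2.52 times the Nr2f2 (2.30 to 2.77) of ROV, while Esr1 differed within counting error (1.205, interval 0.849 to 1.74). The F318 lines were in different library sets, with 7.91% muscle counts in ROV and 0.191% in LOV. In mouse F326, the splenic tumor line had 0.285 times the Esr1 (0.199 to 0.399) and 0.150 times the Greb1 (0.0284 to 0.508) of ROV, and at least 3.91-fold more Pgr by the lower bound of the interval (17 pairs against 0). Each line is 1 library, so none of these intervals covers the variation between cultures.

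**Figure D3:**
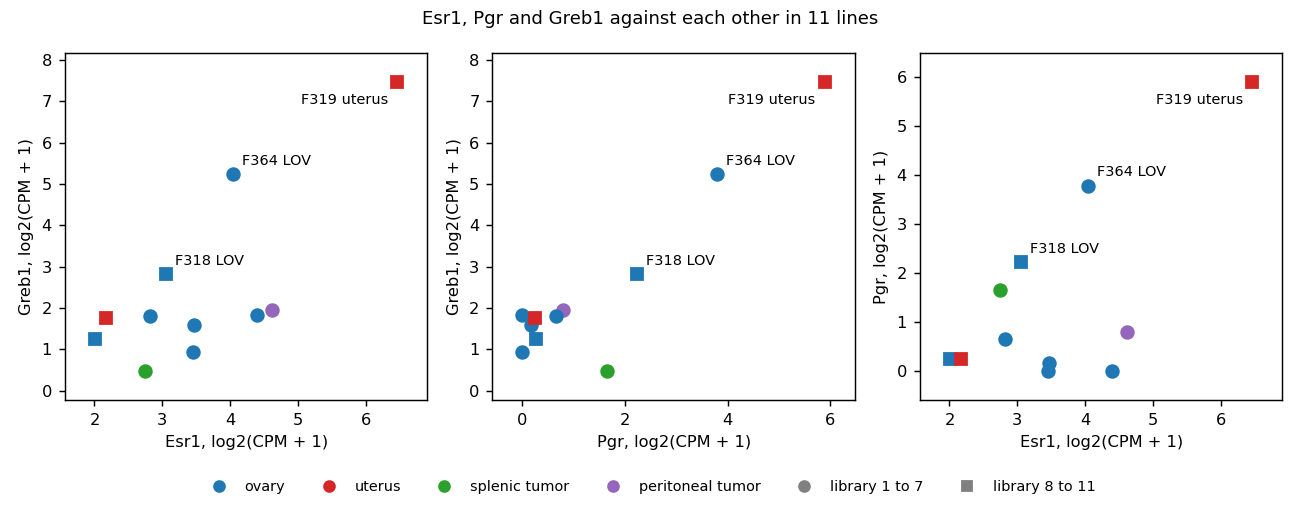
Log2(CPM + 1) of Esr1, Pgr, and Greb1 plotted pairwise for 11 lines, with tissue by color and library set by symbol. F319 uterus is at the upper right in each panel, F364 LOV and F318 LOV come next for Pgr and Greb1, and the lines with more Esr1 than F364 LOV, other than F319 uterus, have little Pgr.

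The 3 lines with the most Pgr were also those with the most Greb1, and below them the orders were not shared. After the mean of each library set was subtracted, Pearson's r over the 11 lines was 0.91 between Pgr and Greb1, 0.83 between Esr1 and Greb1, and 0.73 between Esr1 and Pgr. All 3 values include the F319 uterus line, and the lines share mice and library sets. Without that line they were 0.78, 0.49, and 0.20. Within libraries 1 to 7, which do not contain it, r was 0.77 between Pgr and Greb1, 0.43 between Esr1 and Greb1, and 0.03 between Esr1 and Pgr. The first of these rests on F364 LOV, since over the 6 other libraries of the set r was -0.47 between Pgr and Greb1, 0.61 between Esr1 and Greb1, and -0.43 between Esr1 and Pgr. With both F319 uterus and F364 LOV left out, r over the 9 other lines, again after subtraction of the set means, was 0.22 between Pgr and Greb1, 0.69 between Esr1 and Greb1, and 0.05 between Esr1 and Pgr. The 2 lines with the most Esr1 in that set, F361 and F326 ROV, had 10 and 0 counts of Pgr. Among 17445 other genes, Greb1 was the 7th most like Pgr, and Pgr the 12th most like Greb1.

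Likeness to single genes was measured in the same way, with the mean of each library set subtracted, so that it leaves out differences between the sets. The gene most like Pgr was Gm16485 (r = 0.97), which lies on the same strand 3179 bases beyond the annotated end of Pgr (chromosome 9, 8971791 to 8975773). It had 4.33 CPM in F319 uterus, 1.27 CPM in F364 LOV, 0.436 CPM in F318 LOV, with no more than 0.127 CPM elsewhere. Reads from an extended Pgr transcript and from this gene cannot be told apart in a count table. The next were Adamts3 (r = 0.96), a procollagen protease, and Col6a4 (0.94), a collagen chain. Those most like Greb1 were Zfp804a (0.97), Ptpn5 (0.96), and again Gm16485 (0.95). Ptpn5, a tyrosine phosphatase, was at 32.6 CPM in F319 uterus and 11.6 CPM in F364 LOV. Those most like Esr1 were Adrbk2 (0.95), Wnt10a (0.95), and Sybu (0.94), and Sybu was at 52.8 CPM in F319 uterus against at most 2.75 CPM in the other lines. Nr3c1 was most like Rbm24 (0.93), Mgat4a (0.91), and Rbfox1 (0.90), of which Rbm24 and Rbfox1 are RNA-binding proteins of muscle. In level, Rbm24 differed from Nr3c1 between the sets, with 83.7 to 260 CPM in libraries 1 to 7 and 11.8 CPM in F339 ROV, 10.9 CPM in F333 uterus, and 4.03 CPM in F319 uterus, the 3 lines with the most Nr3c1. Nr2f2 was most like B4galt2 (0.97), Adamts6 (0.96), and Fam131b (0.95). Within libraries 1 to 7 alone, r for the 3 genes named was 0.97 to 0.98 for Nr2f2, 0.89 to 0.95 for Greb1, 0.88 to 0.95 for Pgr, 0.76 to 0.97 for Esr1, and 0.72 to 0.82 for Nr3c1. The genes had been picked over all 11 lines, which include these libraries, so these values are a description only. In that set, Gm16485 and Zfp804a were at 1.27 and 0.886 CPM in F364 LOV and at most 0.127 and 0.228 CPM elsewhere.

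No estrogen response gene passed the edgeR test between uterus and ovary lines, and DESeq2 called 2 lower in uterus, C3 and Lcn2, against 4.05% of all genes. Of 26 listed genes, all were in the table, 19 passed the filter, and 0 were called in either direction by edgeR, with a median log2 fold change of -0.46 in uterus against -0.05 over all genes tested. Of the 17 with a mean count of 10 or more, 4 were highest in the F319 uterus line, against 20.5% of all such genes. These 4 were Igfbp4, an IGF-binding protein, at 851 CPM, Fhl2 at 264 CPM, Rerg at 5.36 CPM, and Myb at 3.18 CPM. Fhl2 was nearly as high in F333 uterus, with 235 CPM, whereas Igfbp4 was at 36.1 CPM there. Ltf, which encodes lactoferrin and is a classical estrogen target of the uterus, had 0 counts in both uterus lines and did not pass 2.35 CPM in any line. C3, a complement component induced by estrogen in the uterus, had 12.3 CPM in F319 uterus and 3.76 CPM in F333 uterus against 18.2 to 197 CPM in the ovary lines (log2 fold change -3.56, SE 0.99, edgeR adjusted p = 0.359, DESeq2 adjusted p = 0.00226). With library set as a term the log2 fold change of C3 was -1.92, and within libraries 8 to 11 it was -1.97. Lcn2, an iron-scavenging secreted protein, had 1.96 CPM in F319 uterus and 0.557 CPM in F333 uterus and ranged from 0.349 to 135 CPM in the ovary lines (DESeq2 adjusted p = 0.00468). Tff1, Tff3, and Agr2, targets known from breast cancer cells, did not reach 1 CPM in any line. Igf1 was lowest of all lines in F319 uterus, at 0.222 CPM.

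No progesterone response gene passed the edgeR test either, and DESeq2 called 1 higher in uterus, Hoxa11, and 3 lower, Wnt4, Sox17, and Zbtb16, against 0.593% and 4.05% of all genes. All 20 were in the table, 15 passed the filter, and the median log2 fold change was -1.001. Hand2, a stromal target of Pgr, was at 0 in all of libraries 8 to 11 and in F364 LOV, and was highest in F319 ROV with 18.1 CPM. Ihh, the epithelial target, did not pass 0.295 CPM. Bmp2 was at 0.518 CPM in F319 uterus and at most 3.61 CPM, in F361. Wnt4, a signal of the stroma, had 2.59 CPM in F319 uterus and 2.88 CPM in F333 uterus against 7.84 to 123 CPM in the ovary lines. It also split by library set, and the ovary lines of libraries 8 to 11 had 7.84 CPM (F339 ROV) and 11.6 CPM (F318 LOV) against 39.7 to 123 CPM in libraries 1 to 7. The uterine patterning genes Hoxa10 (47.5 and 64.3 CPM) and Hoxa11 (41.7 and 48.1 CPM) exceeded every ovary line (up to 39.2 and 22.3 CPM). These were the 2 genes of the list for which both uterus lines lay above all ovary lines, against 5.04% of tested genes. Hoxa10 also split by library set, with 36.5 CPM in F339 ROV and 39.2 CPM in F318 LOV against 12.4 to 22.2 CPM in libraries 1 to 7. Sox17 and Zbtb16 were fitted lower in uterus by log2 fold changes of -5.63 and -5.16 (DESeq2 adjusted p = 0.0191 and 0.0132), but by 1.82 and 0.24 higher with library set as a term. The ovary lines F339 ROV and F318 LOV were also low, with 0.314 and 0 CPM of Sox17 and 8.39 and 0.349 CPM of Zbtb16.

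Among the 6 lists, the median difference was largest for the glucocorticoid response genes, and those of them that did not overlap between the library sets were lower in libraries 8 to 11. All 20 genes were tested, 0 were called by edgeR and 9 by DESeq2, all lower in uterus (4.05% of all genes), with a median log2 fold change of -2.92 in uterus. In libraries 8 to 11, 9 of 20 lay below every one of libraries 1 to 7 and 0 lay above, against 16.7% and 26.1% of all genes. The other 11 overlapped, so the share without overlap in either direction was near the 42.8% of all genes. Counts were the same with TMM-scaled CPM (9 and 0, background 21.6% and 19.0%). The 9 were Tsc22d3, Per1, Klf9, Zbtb16, Pdk4, Klf15, Hif3a, Fam107a, and Cdkn1c. Tsc22d3 (GILZ), a direct target of the receptor, had 205 to 352 CPM in the first set and 35.9 to 50.1 CPM in the second. Pdk4, which restrains pyruvate oxidation, had 306 to 3485 CPM in the first and 58.3 to 162 CPM in the second. Fkbp5, a chaperone that damps receptor signaling, had 43.9 to 678 CPM and 67.9 to 97.3 CPM, so its sets overlapped. Exceptions were Angptl4, with 58.7 CPM in F319 uterus and 48.6 CPM in F333 uterus against 3.47 to 72.0 CPM in the ovary lines, and Dusp1 and Sgk1, which were at 152 and 347 CPM in F319 uterus. The 2 lines with the most Nr3c1, F333 uterus and F339 ROV, were thus among those with little RNA of these targets. The sets also differed in muscle fiber RNA (above) and in the sum of 7 listed adipocyte markers. That sum was 388 to 592 CPM in the first and 73.4 to 138 CPM in the second. Most of it came from Adipor2 (207 to 267 and 70.9 to 101 CPM) and Fabp4 (at least 150 and at most 35.5 CPM). Adipoq, Plin1, Cidec, Lep, and Retn did not pass 9.20 CPM in any line, so the sum was not read as adipocyte content. The part of the muscle fiber RNA and of these markers in the difference was not tested.

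Within libraries 1 to 7 the glucocorticoid list was uneven as well. F326 ROV and the F361 line were below the other 5 libraries for 13 of the 20 genes and above them for 2, against 16.0% and 14.3% of all genes. This pair of lines was chosen after the values were seen. Fkbp5 was at 112 and 43.9 CPM in the pair and at 327 to 678 CPM in the others, and Mt1, which encodes a metallothionein, at 30.6 and 30.04 CPM against 451 to 987 CPM. Their Nr3c1, at 73.0 and 97.1 CPM, was within the range of the 5 others (65.4 to 122 CPM), whereas their Esr1 was above all 5. Their muscle shares, 14.7% and 15.3%, were the highest of the set. At the other end, F364 LOV, likewise chosen after the values were seen, was the highest of 11 lines for 10 of the 20 genes, against 5.19% of all genes, with 678 CPM of Fkbp5, 413 CPM of Zbtb16, and 3485 CPM of Pdk4. It was also the ovary line with the most Pgr and Greb1. Fkbp5 and Zbtb16 are known as targets of the progesterone receptor too. In F319 uterus, the line with the most Pgr, they were at 94.5 and 5.66 CPM, within the range of libraries 8 to 11, and the part of Pgr in their levels was not tested.

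**Figure D4:**
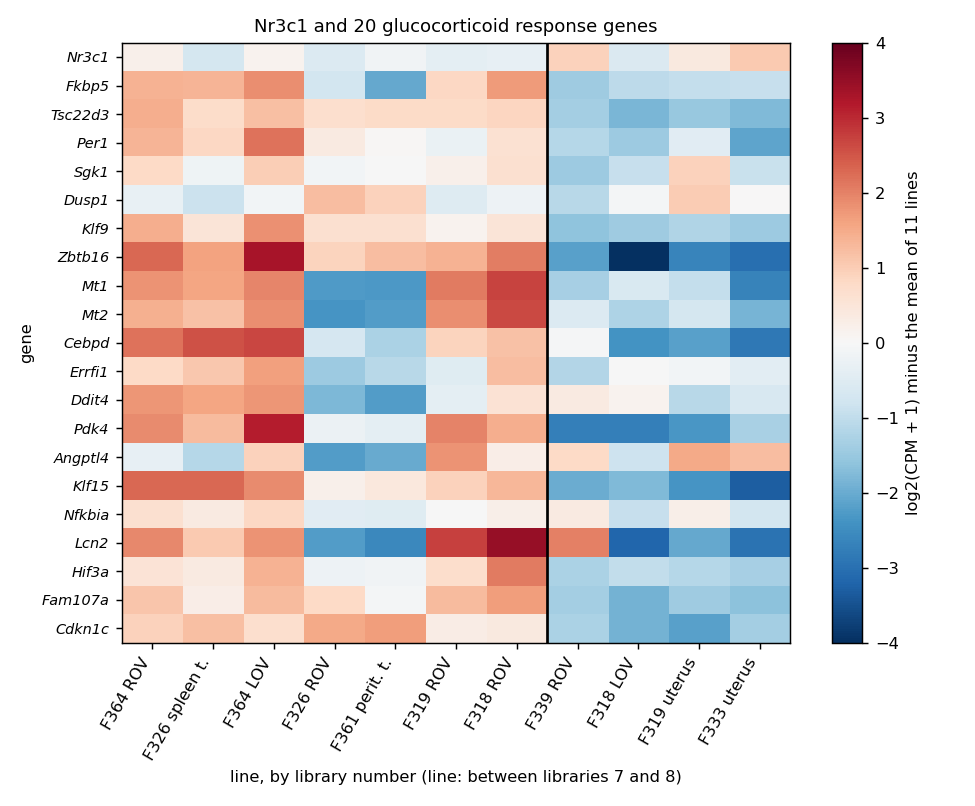
Log2(CPM + 1) of Nr3c1 and 20 glucocorticoid response genes (rows), each minus its mean over 11 lines (columns, by library number), with a black line between libraries 7 and 8. Most targets are higher (red) to the left, other than in F326 ROV and the F361 line, while Nr3c1 in the top row changes little.

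Other nuclear receptors did not overlap between the library sets about as often as all genes, and more of them were lower than higher in libraries 8 to 11. Of 43 listed, 41 were in the table, 36 were tested, and 0 were called by edgeR and 10 by DESeq2, 1 higher and 9 lower in uterus, against 0.593% and 4.05% of all genes (median log2 fold change -1.24, or -0.95 with the 4 genes at or under 6 counts in both uterus lines set to their bound). Of 35 with a mean count of 10 or more, 13 were lower and 4 higher in libraries 8 to 11 without overlap, against 16.7% and 26.1% of all genes and 42.8% in either direction. The lower ones included Nr3c2, the mineralocorticoid receptor (2.66 to 17.8 against 0.349 to 0.902 CPM), the retinoid receptor Rxrg (14.7 to 81.6 against 0.436 to 5.38 CPM), which is typical of skeletal muscle, and the estrogen-related receptors Esrra, Esrrb, and Esrrg, which do not bind estrogen. The higher ones were Rara, Rarg, Nr2c1, and Nr4a2. The vitamin D receptor Vdr was highest in F318 LOV, with 77.1 CPM. Nr2f1, the close relative of Nr2f2, was at 0 in F319 uterus, at 18.2 CPM in F333 uterus, and at 2.15 to 40.8 CPM in the ovary lines. After the mean of each library set was subtracted, Pearson's r between Nr2f1 and Nr2f2 was 0.54 over the 11 lines and 0.69 over the 10 lines other than F319 uterus. The steroidogenic factor Nr5a1, a marker of gonadal and adrenal steroid cells, was at 38.4 CPM in F326 ROV, 18.6 CPM in F364 ROV, 14.4 CPM in F364 LOV, and 4.11 CPM in F318 ROV, and at or under 0.358 CPM in all other lines. Its mean in the ovary lines was 10.8 CPM, at least 43.3-fold above the uterus level that 6 counts per library allow. Without F326 ROV the mean was 6.25 CPM and the bound 24.98-fold. The ovary lines named with Nr5a1 were all in libraries 1 to 7. In libraries 8 to 11, Nr5a1 was at 0 in F339 ROV and 0.0873 CPM in F318 LOV. The uterus lines had 0 (F319) and 0.0928 CPM (F333), so no ovary excess was seen within that set.

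**Figure D5:**
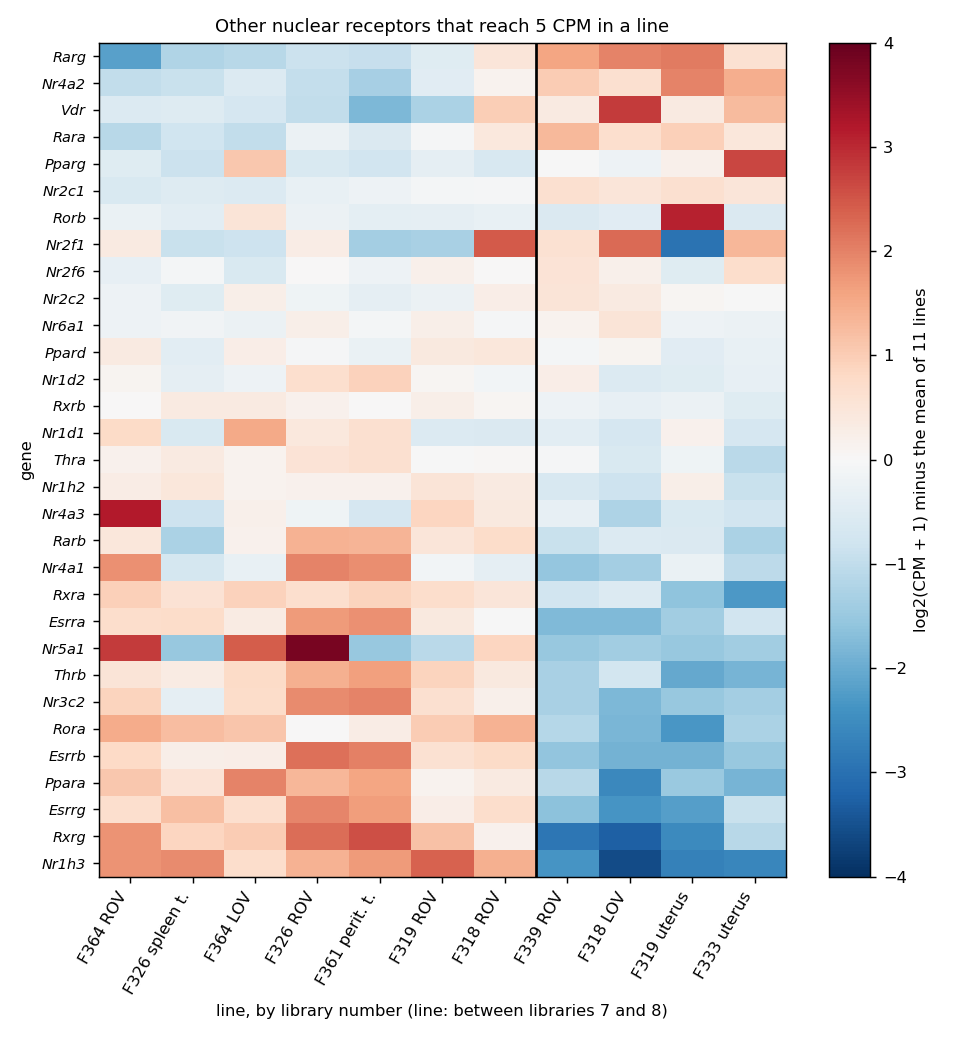
Log2(CPM + 1) of 31 other nuclear receptors that reach 5 CPM in a line, each minus its mean over 11 lines (columns, by library number), ordered by the difference between library sets. Rarg is at the top, higher in libraries 8 to 11, followed by Nr4a2, Vdr, and Rara. Rxrg and Nr1h3 are at the foot, and Nr5a1 is high only in 4 ovary lines, all in libraries 1 to 7.

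Genes for proteins that receptors work with had a median difference near 0. Of 27 coregulators, chaperones, and related genes, 26 were tested, 0 were called by edgeR and 3 by DESeq2 (1 higher and 2 lower in uterus, against 0.593% and 4.05% of all genes), and the median log2 fold change was -0.01. The coactivator Ncoa3 was at 24.7 to 86.7 CPM and the corepressor Nrip1 at 19.2 to 64.9 CPM over the lines. Libraries 8 to 11 were above libraries 1 to 7 without overlap for 8 of 25 and below for 1, against 26.1% and 16.7% of all genes, and the 8 included the chaperone Hsp90aa1 (468 to 764 against 42.2 to 180 CPM) and the membrane progesterone-binding protein Pgrmc1 (185 to 341 against 23.2 to 85.9 CPM). Foxa1, a pioneer factor for Esr1 in breast, was at 1.996 CPM in F333 uterus, at 0 in F319 uterus, and at 0 to 1.14 CPM in the ovary lines. Gata3 had 9.06 CPM in F319 uterus and 9.24 CPM in F333 uterus, and 1.34 to 22.8 CPM in the ovary lines. Gper1, a membrane receptor for estrogen, had at most 4 counts in the uterus lines and a mean of 3.02 CPM in the ovary lines, at least 12.1-fold above the level that 6 counts per uterus library allow. Foxa2, a factor of uterine glands, was at 0 in both uterus lines and in F318 LOV, at 0.0392 CPM in F339 ROV, and at 0.147 to 12.4 CPM in libraries 1 to 7. It was the 1 gene counted as below. Its levels in F361 (0.147 CPM) and the F326 splenic tumor line (0.190 CPM) were under the level that 0 counts allow. No split by library set was therefore read from it.

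Genes of steroid metabolism spanned a wide range of levels. Of 20 listed, 18 were in the table, 12 were tested, and 0 were called by edgeR and 3 by DESeq2, 1 higher and 2 lower in uterus, against 0.593% and 4.05% of all genes (median log2 fold change 0.24). Of the 18, 6 were at 1 CPM or more in every line and 6 stayed below 1 CPM in every line. Hsd17b4, a peroxisomal enzyme, was at 52.5 to 114 CPM in all lines. Hsd17b12 reached 116 to 221 CPM in libraries 8 to 11, above the first set with its 12.6 to 67.2 CPM, and Hsd17b7 was at 6.85 to 63.2 CPM over all lines. Star, which brings cholesterol into mitochondria, was at 48.7 CPM in F326 ROV and at 1.77 to 8.88 CPM in the other lines. Akr1c14, a 3-alpha-hydroxysteroid dehydrogenase that reduces steroid metabolites, was at 356 CPM in F319 uterus and at 0.799 to 8.43 CPM in the 10 other lines. Its fitted log2 fold change was 5.01 (SE 0.996, adjusted p = 0.359) and 0.57 without F319 uterus. Among the hormone-producing enzymes, Cyp17a1 was at most 0.147 CPM and Hsd17b1 at most 1.57 CPM. Cyp11a1, which makes pregnenolone from cholesterol, reached 11.5 CPM in F364 LOV. It was at 0 in both uterus lines, at 0.0784 CPM in F339 ROV, and at 0.131 CPM in F318 LOV. In libraries 1 to 7, F361 (0.147 CPM), the F326 splenic tumor line (0.253 CPM), and F364 ROV (0.254 CPM) were also under the level that 0 counts allow. No split by library set was therefore read from it. Hsd3b1 was also highest in F364 LOV, with 7.09 CPM against at most 0.799 CPM in the other lines. Hsd11b1, which regenerates active glucocorticoid, had 6.72 to 18.2 CPM in the first library set and 0.813 to 2.09 CPM in the second.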

How the data were processed

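Bulk polyadenylated RNA of 11 cell lines was sequenced as 150 bp read pairs. Per the study's methods, reads were aligned to GRCm38 (mm10) by RNA STAR, PCR duplicates were taken out by SAMtools RmDup, and featureCounts assigned reads to genes. The authors deposited raw counts per gene without normalization. Versions and the strand setting are not given in the sources used here. Counts of 1 to 10 were even in 78.5% of cases, against 50.4% of those over 100. No pair of libraries held identical values.

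The 6 genes, the lists, and the comparison of libraries 1 to 7 with 8 to 11 were chosen with earlier results of these data known. The title of a sample gave its tissue and its description the library number. The 2 uterus and 7 ovary lines were compared with edgeR 4.0.16 (quasi-likelihood test, TMM, filterByExpr, Benjamini-Hochberg adjusted p under 0.05) in R 4.3.3, and with DESeq2 1.42.0 as an alternative. The test was checked on simulated counts. Nothing in the labels says how separate cultures of a mouse were, so p-values measure the spread between lines, some of which share a mouse. Esr2, which the filter removed, was tested by exact permutation of log2(CPM + 1). Ratios of 2 lines have exact 95% binomial intervals on read pairs. Alternatives covered normalization, filter, tool, library set, muscle fiber genes, pseudocount, mouse as a block, and each line left out. Gene positions are from GENCODE M21 on GRCm38.

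Named were the 6 genes, receptors and targets fixed with the lists, the 3 tested genes per list with the largest fitted change, the 3 genes most like each member, and the highest, lowest, or excepted genes of a list. Rerg, Myb, and Mt1 fall under the last, and Pdk4 as the highest. The coordinates and promoter of Nr3c1 and the single values of 2 other receptors are not reported here.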

Additional observations from a re-analysis of the deposited data

Results flagged for a closer look

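Among 35 genes examined over the 7 ovary lines on the log2(CPM + 1) scale, 2 had a line far from the rest by Dixon's criterion, and chance flags about 1 in 20 groups. Hand2, a transcription factor of the uterine stroma, was at 18.1 CPM in F319 ROV and at 0 to 2.34 CPM in the 6 other ovary lines. F319 ROV was also the line with the most Krt8. Hsd3b1, an enzyme of progesterone synthesis, was at 7.09 CPM in F364 LOV and at 0 to 0.799 CPM in the 6 other ovary lines. F364 LOV was also the ovary line with the most Pgr, Greb1, and Cyp11a1. None of the 6 receptor and Greb1 genes met the criterion.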

How the results depend on the processing

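The number of genes that differed between uterus and ovary lines was 0 in the main edgeR test, 2 without a low-count filter, 1293 with DESeq2, and 0 to 1 when each line was left out in turn. DESeq2 called 1 of the members and 29 genes of the lists (4 higher and 25 lower in uterus), and no other setting called any. Without the F319 uterus line, Esr1 (-1.71), Pgr (-3.89), and Greb1 (-1.87) changed sign. Over all lines left out, log2 fold changes ranged from -1.71 to 2.73 for Esr1, -3.89 to 5.15 for Pgr, -1.87 to 4.90 for Greb1, 0.13 to 0.99 for Nr3c1, and 0.74 to 1.28 for Nr2f2, and the upper ends for Pgr and Greb1 were those without F364 LOV. With library set as a term, Nr2f2 (-0.24), Sox17 (1.82), and Zbtb16 (0.24) changed sign, as did Nr2f2 (-0.29) and Zbtb16 (0.20) within libraries 8 to 11. Foxa1 ranged from -5.49 to 2.86 with each line left out, and the lower end, without the F333 uterus line, is no measured fold because the remaining uterus line had 0 counts. The cause was not tested. DESeq2 also called Greb1 (adjusted p = 0.00764, against 0.359 in edgeR), Lcn2, C3, Sox17, Zbtb16, and Akr1c14. Adjusted p-values for the members ranged over all alternatives from 0.00764 to 1. In all, 239 of the values recomputed were scored as unchanged, 9 reversed sign, 6 passed the threshold, and 5 counts moved. Unchanged meant the same sign and side of the threshold for a difference, and an equal number for a count. For the range of a member by line it meant a shift within its SD over the lines. The main test called no gene, so staying on its side of the threshold is the default. With mouse as a replicate block, an alternative chosen after seeing the data, the 9 lines of 6 mice left 2 residual degrees of freedom, and only F319 gave both an ovary and a uterus line. That fit called 0 genes, with log2 fold changes of 2.85 for Esr1, 7.33 for Greb1, 2.16 for Nr2f2, and 0.53 for Nr3c1, and Pgr, at 0 in F319 ROV, gave no usable fold.

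With 2 uterus lines that disagree for Esr1, Pgr, and Greb1, a difference between the organs could not be told from a difference between lines. Counts of 6 or fewer limit Esr2 in all lines, Pgr in 5, and Greb1 in the F326 splenic tumor line. The Pgr value without F319 uterus rests on 4 counts in F333 uterus.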
